A study of Mus musculus with 9 samples.

Results

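The Hox genes were represented by 22 of the 75936 peaks of open chromatin in this mouse ATAC-seq table. A peak was taken when its centre lay inside a protein-coding gene named Hoxa, Hoxb, Hoxc or Hoxd with a number, or within 1 kb of either annotated end of such a gene, and was counted once, under the gene whose end was nearest. ATAC-seq reads open DNA through the cuts of a transposase. Each value here is what the authors call a DESeq2-normalized count, meaning a read count divided by a size factor of its library (normalized counts). The deposited start and end lie 501 bases apart for every peak, so that levels of different peaks refer to the same length. The 9 libraries came from D2A1-d, a mouse breast carcinoma line labelled as breast tissue and otherwise untreated, transduced with the hairpin shMed1 #2 (n = 3, genotype label Med1 Knockdown), the hairpin shMed1 #4 (n = 3, same label) or a non-targeting control hairpin, NTC (n = 3, genotype label WT). MED1 is a subunit of Mediator, the coactivator complex between transcription factors and RNA polymerase II, and the comparison asks what a hairpin against Med1 did to open chromatin at these genes. The samples are named biological replicates, with no word on separate cultures, so p-values measure the spread between these samples, which may be technical.

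HOX proteins are homeodomain transcription factors that give cells of the embryo their position along the head-to-tail axis. Their genes lie in compact clusters on separate chromosomes and carry a paralogue number that runs along each cluster. Genes with low numbers are switched on earlier and closer to the head than genes with high numbers. Polycomb proteins keep silent Hox genes closed, Trithorax and MLL proteins keep active ones open, retinoic acid switches on the low-numbered end, and adult cells, those of the mammary gland included, keep a pattern of open and closed Hox genes that reflects their origin. HOX proteins bind DNA together with PBX and MEIS cofactors.

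Open chromatin covered a minority of the Hox genes, and most of it lay in the Hoxa cluster. Of 39 Hox genes, 13 (33.3%) had a peak, whereas 14858 of 21631 protein-coding genes (68.7%) and 9767 of 13903 genes within the length range of the Hox genes (70.3%) had a peak. The Hoxa cluster, on chromosome 6, held 15 peaks at 7 of its 11 genes. The Hoxb cluster, on chromosome 11, held 2 peaks at 2 of 10 genes, the Hoxc cluster, on chromosome 15, held 4 peaks at 3 of 9 genes, and the Hoxd cluster, on chromosome 2, held 1 peak at 1 of 9 genes. By paralogue position, a peak was present at 4 of 8 anterior genes (numbers 1 to 3), at 7 of 15 central genes (4 to 8) and at 2 of 16 posterior genes (9 to 13), the posterior ones being Hoxa10 and Hoxc10. No peak was taken for Hoxa7, Hoxa9, Hoxa11 or Hoxa13.

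Start-site windows of 4 Hoxa genes overlapped a peak, and they are printed because they are the Hox windows in the reference table with such an overlap. The overlap was 229 of 300 bases at Hoxa2, 180 at Hoxa5, 300 at Hoxa6 and 138 at Hoxa3. A printed motif can therefore lie outside the peak. The RefSeq table (GRCm38.p6) held windows from 250 bases before to 50 bases after a start, 24 of them for 22 of the 39 genes. The windows lie on the minus strand, at chr6:52164782-52165081 for Hoxa2, chr6:52204538-52204837 for Hoxa5, chr6:52208623-52208922 for Hoxa6 and chr6:52213018-52213317 for Hoxa3. They read 5′ to 3′ as follows, with capitals for the motifs named after them.
Hoxa2: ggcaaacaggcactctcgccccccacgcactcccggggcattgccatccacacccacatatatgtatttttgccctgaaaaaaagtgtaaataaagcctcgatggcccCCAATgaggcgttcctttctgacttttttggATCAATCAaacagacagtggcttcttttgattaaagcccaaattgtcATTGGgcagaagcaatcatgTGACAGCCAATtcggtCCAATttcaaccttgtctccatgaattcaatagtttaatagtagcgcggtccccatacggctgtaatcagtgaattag
Hoxa5: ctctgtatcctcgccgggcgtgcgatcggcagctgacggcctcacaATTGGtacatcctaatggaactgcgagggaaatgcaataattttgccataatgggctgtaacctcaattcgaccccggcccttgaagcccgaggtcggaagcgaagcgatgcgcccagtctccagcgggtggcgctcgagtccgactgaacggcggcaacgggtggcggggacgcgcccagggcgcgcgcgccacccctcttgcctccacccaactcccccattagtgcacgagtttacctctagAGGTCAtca
Hoxa6: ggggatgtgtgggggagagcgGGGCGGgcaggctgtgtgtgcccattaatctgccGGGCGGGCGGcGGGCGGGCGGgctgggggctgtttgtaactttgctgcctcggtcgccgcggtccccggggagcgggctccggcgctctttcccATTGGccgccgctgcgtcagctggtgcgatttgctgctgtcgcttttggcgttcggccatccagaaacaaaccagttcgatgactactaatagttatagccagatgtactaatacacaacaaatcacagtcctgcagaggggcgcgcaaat
Hoxa3: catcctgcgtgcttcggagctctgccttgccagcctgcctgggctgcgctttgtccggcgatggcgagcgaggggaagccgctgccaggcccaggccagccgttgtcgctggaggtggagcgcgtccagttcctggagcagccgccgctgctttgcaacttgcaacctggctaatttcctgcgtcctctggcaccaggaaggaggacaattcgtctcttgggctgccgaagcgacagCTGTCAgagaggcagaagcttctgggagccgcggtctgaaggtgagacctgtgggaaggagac

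On either strand, 8 motifs were searched in these windows. The CCAAT box, CCAAT, stands in the Hoxa2, Hoxa5 and Hoxa6 windows and in 37.4% of the 32851 promoters of the table. The MEIS core, TGACAG, stands in the Hoxa2 and Hoxa3 windows and in 19.2% of all promoters, and in the Hoxa2 window it runs straight into a CCAAT box. The PBX-HOX motif, TGATNNAT, stands in the Hoxa2 window (8.85% of all promoters), the nuclear receptor half-site, AGGTCA, in the Hoxa5 window (16.3%), and the GC box, GGGCGG, 5 times in the Hoxa6 window with overlaps (35.7%). AP-1 (TGANTCA, 7.81%), TTTATG (a core preferred by posterior HOX proteins, 11.9%) and the TATA box (TATAAA, 13.6%) had no match in the printed windows. Of all 24 Hox windows, CCAAT stood in 15, GGGCGG in 10, AGGTCA in 7, TGATNNAT in 4 and TGACAG in 2. TTTATG stood in 5, TATAAA in 4 and TGANTCA in 1. In the Hoxa5 window the CCAAT box lies outside the peak. A match is a run of letters and not a tested site. The printed windows held 9 to 29 CpG dinucleotides, with a median of 23, the 20 Hox windows with no peak held 4 to 45, with a median of 13.5, and the median of all promoters was 7.

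The level of open chromatin varied widely between Hox peaks. In NTC libraries the lowest mean was 49.8 normalized counts per peak and the median 226, against 208 over the peaks tested. Peaks of a cluster are named below by their gene and by the distance of their centre from the low-numbered end of the cluster. High NTC means were those of Hoxa3 at 57.5 kb (1490 ± 48.4), Hoxa5 (1477 ± 59.5) and Hoxa3 at 17.3 kb (1217 ± 40.2; SD, n = 3 each). Hoxa3, needed for thymus and parathyroid, is annotated across Hoxa4, Hoxa5 and Hoxa6, so the peaks of these 3 genes also lie within it. Outside Hoxa, the highest NTC means were 301 ± 19.7 at Hoxd3, 223 ± 33.7 at Hoxb6 and 93.5 ± 7.38 at Hoxc6 at 34.5 kb.

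**Figure D1:**
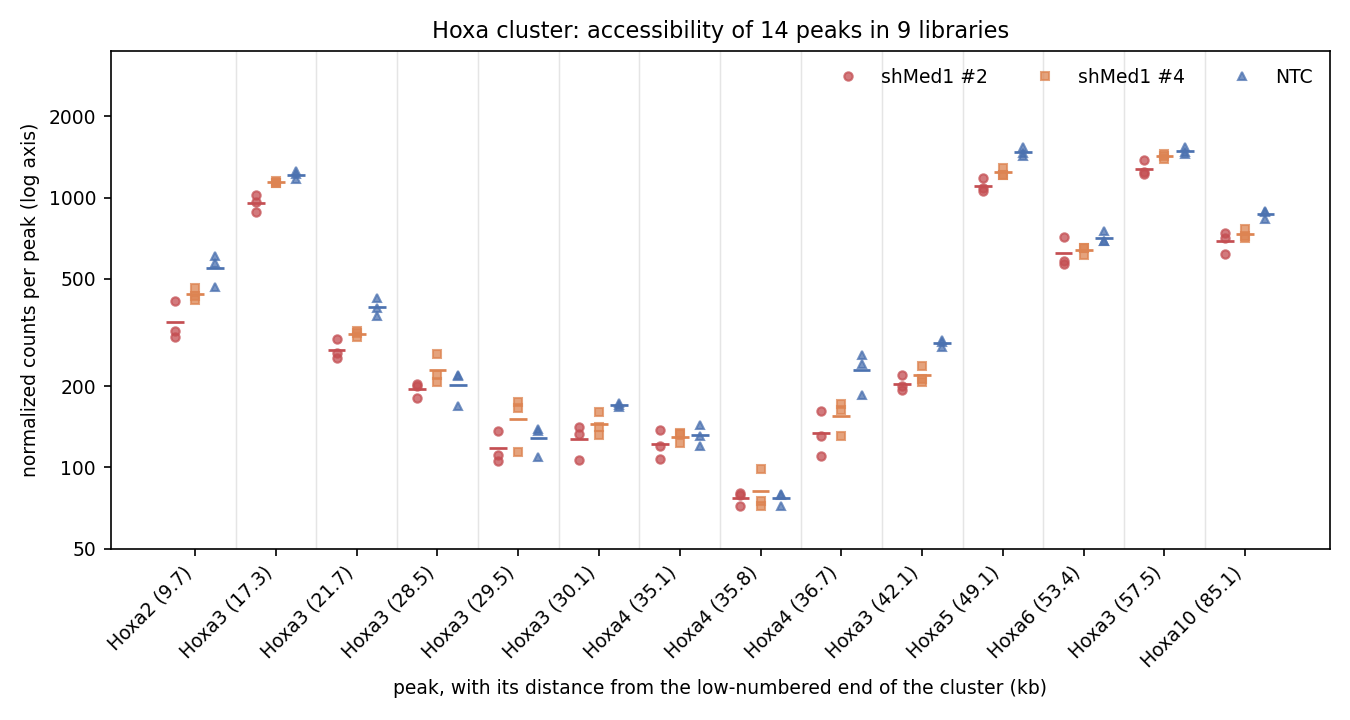
Normalized counts (log axis) of 14 of the 15 Hoxa peaks in order from the low-numbered end, for shMed1 #2 (circles), shMed1 #4 (squares) and NTC (triangles); each symbol is a library and each bar the mean of 3. At Hoxa5 the 3 libraries of either hairpin lie between 1057 and 1290, below the 1423 to 1540 of NTC, while at Hoxa4 at 35.8 kb the groups overlap.

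Where a Hox peak changed in cells with a Med1 hairpin, it fell, and in none of the 3 comparisons with NTC was a Hox peak higher past the threshold. For the mean of both hairpins against NTC, 11 of 22 peaks fell and 11 did not pass (limma, Benjamini-Hochberg adjusted over 75930 peaks, threshold 0.05). Over all peaks tested, 17.7% fell and 22.1% rose in the same comparison. The median log2 fold change of the Hox peaks was -0.22, and that of all peaks was -0.01. With #2, 13 Hox peaks fell, against 19.5% of all peaks that fell and 23.6% that rose. With #4, 7 Hox peaks fell, against 12.1% of all peaks that fell and 17.3% that rose. The medians of the Hox peaks were -0.25 with #2 and -0.24 with #4, beside -0.02 and -0.01 for all peaks. Both hairpins are set against the same NTC libraries. With values scaled to equal library totals, the members that fell were 15, and over all peaks 27.7% fell and 15.9% rose. Of 38 peaks at 6 mesenchymal marker genes, 2 rose and 11 fell for the mean of both hairpins, with a median of -0.19 (-0.24 with #2 and -0.17 with #4). Their summed level was 21008 to 21900 in #2, 22205 to 22827 in #4 and 22046 to 22721 in NTC, and their part in the Hox result was not tested.

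Peaks were also counted by their position in the gene, for the mean of both hairpins. Over the whole table, 32.7% of the peaks within 1 kb of a gene end fell, with a median log2 fold change of -0.07, and 13.9% of those in gene bodies fell, with a median of 0.02. Of the Hox peaks, 7 of 10 at gene ends fell, with a median of -0.25, and 4 of 12 in gene bodies fell, with a median of -0.22. The libraries of both hairpins were all below all NTC libraries at 10 of the 22 Hox peaks, against 12.3% of all peaks. This held for #2 alone at 12 peaks (24.6% of all peaks) and for #4 alone at 11 (19.7%).

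**Figure D2:**
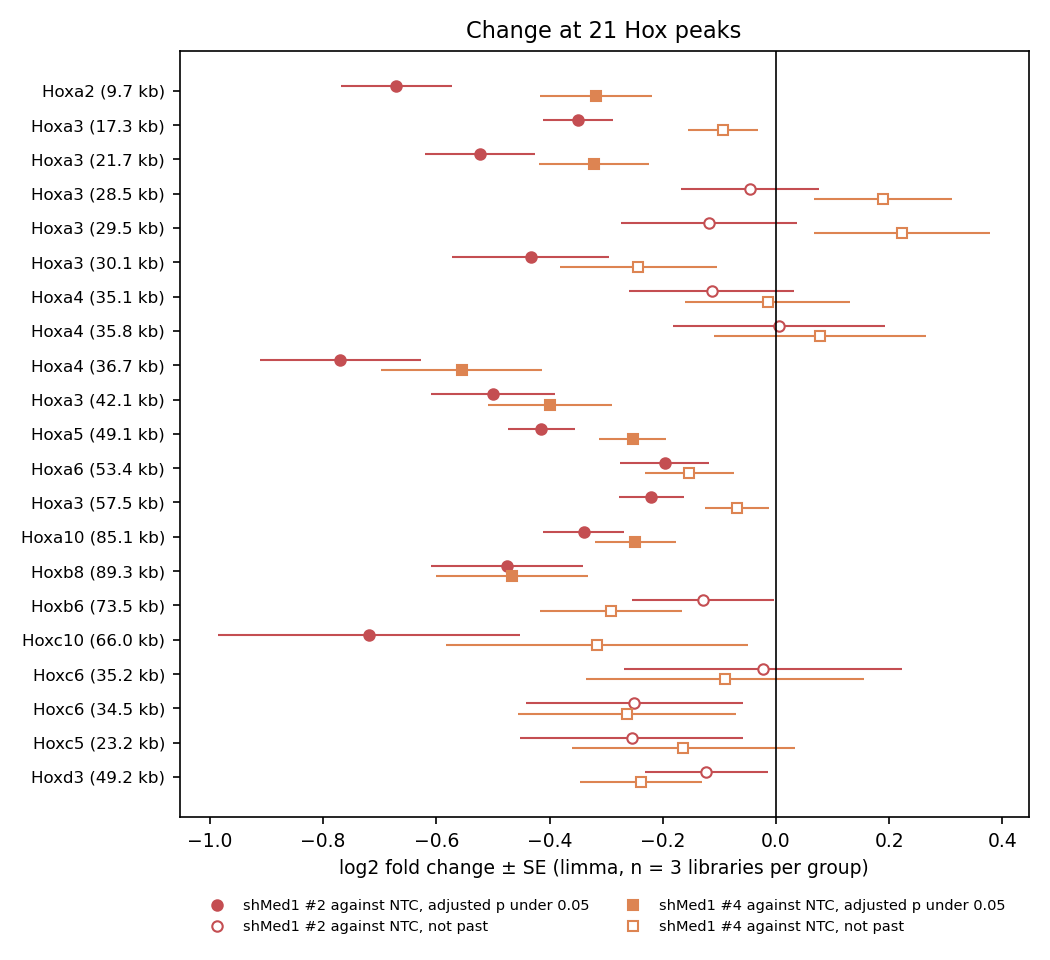
Log2 fold change with its SE (limma, n = 3 libraries per group) of 21 of the 22 Hox peaks, in #2 (circles) and #4 (squares) against NTC; filled symbols have an adjusted p under 0.05. No filled symbol lies to the right of 0; the leftmost is Hoxa4 at 36.7 kb in #2, at -0.77.

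At the low-numbered end of Hoxa, the Hoxa2 peak fell the most among the anterior peaks for the mean of both hairpins and with #2, while with #4 the Hoxa3 peak at 42.1 kb fell more and that at 21.7 kb about as much. Hoxa2 gives the second pharyngeal arch and hindbrain segments their identity. Its peak (chr6:52164853-52165354), which overlaps the first of the printed windows, had 413, 319 and 304 normalized counts in #2, 416, 433 and 464 in #4, and 466, 572 and 608 in NTC. No library with a Med1 hairpin reached the lowest NTC library, although the highest #4 library and the lowest NTC library were nearly level. The log2 fold change was -0.67 ± 0.10 (SE) in #2 (adjusted p = 2.09e-07 by limma) and -0.32 ± 0.10 in #4 (adjusted p = 0.0115). Without NTC replicate 3 the adjusted p in #4 was 0.120, without NTC replicate 2 it was 0.0710, and without #4 replicate 1 it was 0.0515.

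The 7 peaks counted under Hoxa3 did not move alike. For the mean of both hairpins 5 of them fell, against 17.7% of all peaks. Of these, the peaks at 17.3, 30.1 and 57.5 kb did not pass with #4 alone (adjusted p = 0.262, 0.187 and 0.383 by limma). The peaks at 28.5 and 29.5 kb, with log2 fold changes of 0.07 ± 0.11 and 0.05 ± 0.13, did not pass in any comparison. Without #4 replicate 2, #4 was higher than #2 at 29.5 kb (adjusted p = 0.0178). At 21.7 kb (chr6:52176861-52177362) the values were 298, 265 and 255 in #2, 315, 319 and 305 in #4, and 389, 364 and 423 in NTC. Here each hairpin library lay below each NTC library, with -0.52 ± 0.10 in #2 (adjusted p = 1.88e-05) and -0.32 ± 0.10 in #4 (adjusted p = 0.00968, and 0.0816 without NTC replicate 3). At 42.1 kb (chr6:52197188-52197689) the values were 193, 220.0 and 199.5 in #2, 213, 208 and 237 in #4, and 291, 280.2 and 296 in NTC, again without overlap. The log2 fold changes at this peak were -0.50 ± 0.11 in #2 (adjusted p = 2.07e-04) and -0.40 ± 0.11 in #4 (adjusted p = 0.00425). At 30.1 kb the mean change was -0.34 ± 0.12 (adjusted p = 0.0209), and the adjusted p was 0.0575 to 0.0674 when any single NTC library or #2 replicate 3 was left out. The strongest of the 7, at 57.5 kb at the Hoxa3 end, had 1281 ± 82.2 in #2, 1420 ± 32.9 in #4 and 1490 ± 48.4 in NTC (SD, n = 3), a mean change of -0.14 ± 0.05 (adjusted p = 0.0166, and 0.120 without NTC replicate 3).

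Among the central Hoxa genes, the peak beside Hoxa4 at 36.7 kb had the largest fall of all Hox peaks for the mean of both hairpins. Hoxa4 takes part in patterning the neck and trunk skeleton. This peak (chr6:52191775-52192276) had 162, 111 and 131 normalized counts in #2, 131, 163 and 171 in #4, and 185, 261 and 241 in NTC. Hairpin and NTC libraries did not overlap. The log2 fold change was -0.77 ± 0.14 in #2 (adjusted p = 1.70e-05 by limma), -0.56 ± 0.14 in #4 (adjusted p = 0.00225) and -0.66 ± 0.12 for both (adjusted p = 2.12e-05), a mean 36.8% lower than NTC. The other peaks of Hoxa4, inside the gene at 35.1 and 35.8 kb, had mean changes of -0.06 ± 0.13 and 0.04 ± 0.16 and did not pass, with overlapping libraries.

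The Hoxa5 peak at 49.1 kb (chr6:52204216-52204717) was the most abundant central peak and overlaps the printed Hoxa5 window. Hoxa5 acts in lung and mammary development, and human HOXA5 can activate the gene of p53 in breast cancer cells. It had 1186, 1082 and 1057 normalized counts in #2, 1217, 1290.0 and 1209.6 in #4, and 1423, 1540.3 and 1467 in NTC. Each hairpin library lay below each NTC library, with -0.41 ± 0.06 in #2 (adjusted p = 1.16e-07) and -0.25 ± 0.06 in #4 (adjusted p = 8.64e-04). Next to it, Hoxa6 had 717, 584 and 567 in #2, 650.4, 651 and 614 in #4, and 689, 692 and 749 in NTC. The highest #2 library lay within the NTC range, the mean change was -0.17 ± 0.07 (adjusted p = 0.0358), and the adjusted p was 0.0668 to 0.202 without NTC replicate 2 or 3, #2 replicate 2 or 3, or #4 replicate 3.

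At the high-numbered end, Hoxa10, known for its role in the uterus at implantation, held the only peak taken at a posterior Hoxa gene. It (chr6:52240262-52240763) had 738, 618 and 708 normalized counts in #2, 721, 711 and 762 in #4, and 836, 882 and 888 in NTC. All hairpin libraries were below all NTC libraries. The log2 fold change was -0.34 ± 0.07 in #2 (adjusted p = 1.34e-04 by limma) and -0.25 ± 0.07 in #4 (adjusted p = 0.00673). Over the whole cluster, 10 of 15 Hoxa peaks fell for the mean of both hairpins (17.7% of all peaks), 11 with #2 (19.5%) and 6 with #4 (12.1%).

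The other clusters held few peaks, with NTC means of 49.8 to 301, beside a median of 208 over the peaks tested. Of their 7 peaks, 1 fell for the mean of both hairpins (17.7% of all peaks), 2 with #2 (19.5%) and 1 with #4 (12.1%), and with so few peaks nothing is read from these counts. All 7 log2 fold changes of the mean were below 0, from -0.52 to -0.06, except that the last of these, at Hoxc6 at 35.2 kb, was 0.01 under quantile scaling. Hoxb8, a gene that blocks the maturation of myeloid cells when overexpressed, had a peak just outside the low-coordinate end of its annotation (chr11:96278736-96279237). The start-site window of Hoxb8 in the reference table, chr11:96281655-96281954, overlapped no peak. The values of the Hoxb8 peak were 172, 131 and 173 in #2, 147, 154 and 177 in #4, and 183, 254 and 228 in NTC, with no overlap. The change was -0.47 ± 0.13 in #2 (adjusted p = 0.00359 by limma) and -0.47 ± 0.13 in #4 (adjusted p = 0.00657), but without NTC replicate 2 the adjusted p was 0.0544 in #2 and 0.0843 in #4, and without #2 replicate 2 it was 0.0564 in #2. Hoxb6, a trunk gene, had 206, 209.6 and 192 in #2, 180.3, 210.2 and 156 in #4, and 189, 224 and 256 in NTC. These libraries overlapped and the mean change of -0.21 ± 0.11 did not pass (adjusted p = 0.117). It was -0.32 without NTC replicate 1 (adjusted p = 0.0337) and -0.29 with equal totals (adjusted p = 0.0284).

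Hoxc10, which acts in lumbar motor neurons, had the weakest of the peaks that fell in any comparison (chr15:102970618-102971119). Its values were 29.9, 34.6 and 41.9 in #2, 39.9, 38.8 and 65.7 in #4, and 70.7, 66.4 and 42.4 in NTC. The #2 libraries lay just below the lowest NTC library, and the #4 libraries overlapped NTC. The change was -0.72 ± 0.27 in #2 (adjusted p = 0.0257) and -0.32 ± 0.27 in #4 (adjusted p = 0.393). Without NTC replicate 1 or 2, or #2 replicate 1 or 2, the adjusted p in #2 was 0.0534 to 0.129. For the mean of both hairpins the adjusted p by limma was 0.0686. It was 0.0285 without NTC replicate 3, 0.0287 without #4 replicate 3, 0.0337 with equal totals and 0.0435 with voom weights. The peaks at Hoxc6, a gene of the thoracic trunk, and at Hoxc5 had group means of 46.8 to 93.5, overlapped between groups and did not pass.

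At Hoxd3, which with Hoxa3 shapes the first neck vertebra, the values were 293, 280 and 255 in #2, 221, 298 and 250.4 in #4, and 279, 305 and 318 in NTC. The libraries overlapped and the mean change of -0.18 ± 0.09 did not pass (adjusted p = 0.120 by limma). The adjusted p was 0.0440 without #4 replicate 2 and 0.0230 with equal totals.

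Summed over its 15 peaks, the Hoxa cluster had 9140, 8298 and 8267 normalized counts in #2, 9531, 9565 and 9509 in #4, and 10124, 10596 and 10761 in NTC. All hairpin libraries were below all NTC libraries, and #2 replicate 1 stood above the other #2 libraries. The #2 mean was 81.7% and the #4 mean 90.9% of the NTC mean. Hoxa held 91.1% of the summed Hox signal in NTC. The sums of Hoxb were 361 ± 18.8 in #2, 341 ± 20.1 in #4 and 445 ± 63.3 in NTC, those of Hoxc were 232 ± 34.1 in #2, 246 ± 26.4 in #4 and 285 ± 36.0 in NTC, and those of Hoxd were 276 ± 19.3 in #2, 256 ± 38.6 in #4 and 301 ± 19.7 in NTC (SD, n = 3). By paralogue position, the anterior sum was 83.4% of NTC in #2 and 93.4% in #4, the central sum 79.6% in #2 and 84.5% in #4, and the posterior sum 77.9% in #2 and 83.9% in #4. These sums are descriptions and were not tested.

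**Figure D3:**
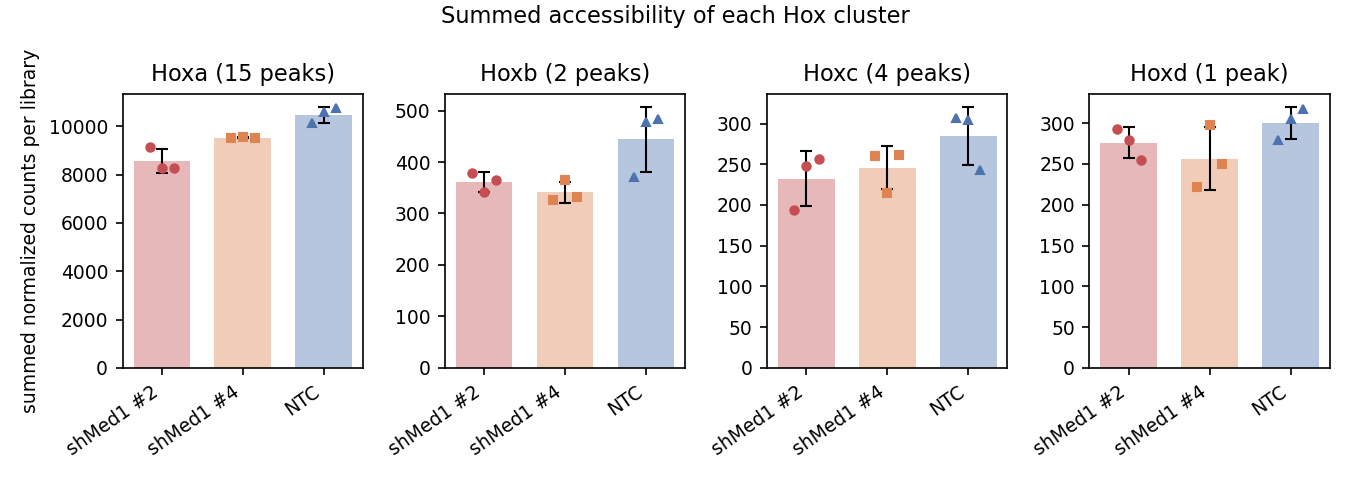
Summed normalized counts of the peaks of each cluster per library, for shMed1 #2, shMed1 #4 and NTC from left to right; bars are means from 0, error bars are SDs (n = 3) and symbols are libraries. Hoxa means are 8568 in #2, 9535 in #4 and 10494 in NTC, and the means of the other clusters are 445 or less.

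Set directly against each other, #4 was higher than #2 at 3 Hox peaks, all in Hoxa, against 8.48% of all peaks, and the other 19 did not pass. The 3 were Hoxa2, Hoxa3 at 17.3 kb and Hoxa5. The Hoxa3 peak at 17.3 kb (chr6:52172425-52172926) had 1136, 1155 and 1128 normalized counts in #4, and 1021, 959 and 887 in #2, with 1226, 1252 and 1173 in NTC, to which #2 had a log2 fold change of -0.35 ± 0.06 and #4 of -0.09 ± 0.06. Its #4 libraries were all above its #2 libraries, the difference was 0.26 ± 0.06 (adjusted p = 0.00155 by limma), and the adjusted p was at most 0.0233 over the alternatives. At Hoxa2 the difference was 0.35 ± 0.10 (adjusted p = 0.00641, and 0.0507 or 0.0651 without #2 replicate 2 or 3). At Hoxa5 it was 0.16 ± 0.06 (adjusted p = 0.0425), and the adjusted p was above the threshold in 9 of 16 refits, at most 0.191. The libraries of #4 lay above those of #2 at 7 Hox peaks, against 15.6% of all peaks. The number of Hox peaks past the threshold was 1 without #2 replicate 2 (6.04% of all peaks), 1 without #2 replicate 3 (7.38%) and 5 without #2 replicate 1 (8.23%). At the 10 Hox peaks at gene ends the median difference was 0.10, and at all gene-end peaks it was 0.05.

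The falls were not limited to the genes themselves. Between the first and last gene of the clusters lay 7 further peaks more than 1 kb from a Hox gene, 4 in Hoxa, 2 in Hoxb and 1 in Hoxc. All 7 fell for the mean of both hairpins, against 17.7% of all peaks, with a median log2 fold change of -0.43. The nearest to the limit of the rule lay 1115 bases from the end of Hoxa2 and had 346 ± 27.1 in #2, 379 ± 16.6 in #4 and 462 ± 44.2 in NTC (SD, n = 3), a change of -0.35. Of the peaks taken, the farthest outside a gene was that of Hoxb8, at 415 bases. The highest of the 7, between Hoxa7 and Hoxa9 at 66.5 kb, had 958 ± 25.0 in #2, 983 ± 6.41 in #4 and 1069 ± 44.6 in NTC, a change of -0.14 ± 0.05 (adjusted p = 0.0347). With #4 alone this peak and the Hoxa peak at 101.8 kb did not pass (adjusted p = 0.141 and 0.162 by limma). The Hoxb peak at 133.1 kb passed with neither hairpin alone (adjusted p = 0.0859 in #2 and 0.0955 in #4 by limma). In the 100 kb on either side of the clusters, 27 peaks had a median of -0.03, with 5 higher and 4 lower. Over all peaks tested, 22.1% were higher and 17.7% lower. The difference between the inside and the outside of the clusters was not tested.

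**Figure D4:**
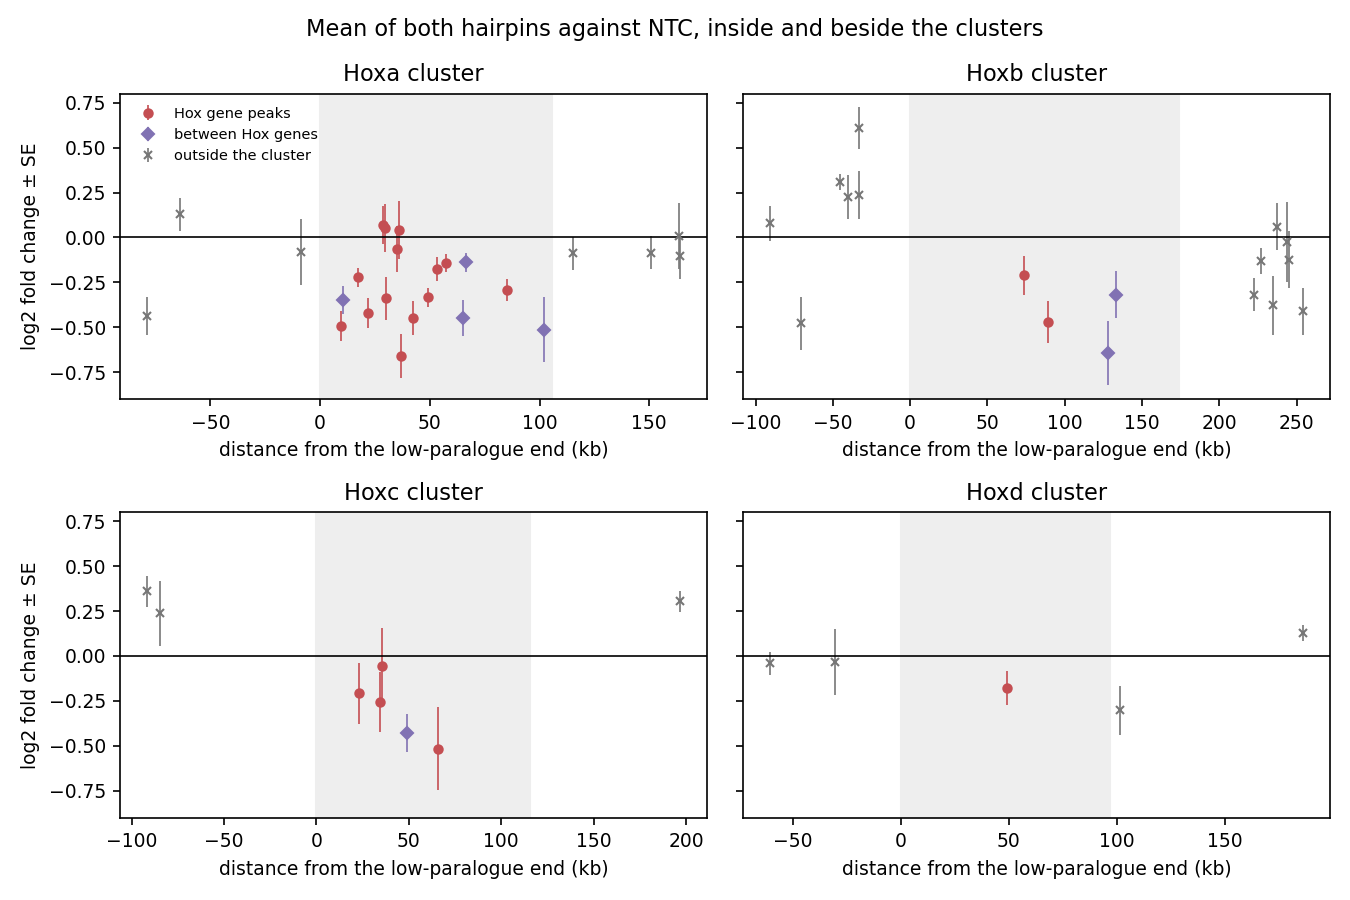
Log2 fold change with its SE of the mean of both hairpins against NTC, by distance from the low-numbered end of each cluster, which the grey area spans; circles are 21 of the Hox gene peaks, diamonds are peaks between the genes and crosses are peaks up to 100 kb outside. Among all peaks inside the clusters, 18 of 29 peaks fell and 0 rose, and outside 4 of 27 fell and 5 rose. Over all peaks tested, 17.7% fell and 22.1% rose.

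Genes that act with or on the Hox genes showed changes in both directions. PBX and MEIS cofactors had 58 peaks at 9 genes, of which 16 rose and 7 fell, with a median log2 fold change of 0.06. Within this list the gene-end peak of Pbx3 fell by 0.37 ± 0.07 (adjusted p = 3.26e-05). Polycomb genes had 129 peaks at 32 genes, of which 11 rose and 37 fell, with a median of -0.12. The gene-end peak of Eed, a core subunit of the complex that methylates histone H3 at lysine 27, had 750 ± 109 in #2, 812 ± 30.2 in #4 and 1085 ± 47.8 in NTC and fell by 0.48 ± 0.06 (adjusted p = 2.69e-08). A peak of Pcgf2 fell by 0.51 ± 0.07, and a peak of Phc2 rose by 0.31 ± 0.05. Both genes encode subunits of the other main Polycomb complex. These counts stand beside 22.1% of all peaks that rose and 17.7% that fell.

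Trithorax and MLL genes had 91 peaks at 18 genes, of which 15 rose (16.5%) and 20 fell (22.0%), with a median of -0.07, beside 22.1% and 17.7% of all peaks. A peak in Aff1, a partner gene of MLL fusions and part of the super elongation complex, had 925 ± 28.2 in #2, 632 ± 23.0 in #4 and 443 ± 36.9 in NTC and rose by 0.79 ± 0.07 (adjusted p = 5.12e-14). A peak in Kmt2d, a histone H3 lysine 4 methyltransferase, fell by 0.43 ± 0.06 (adjusted p = 3.89e-08). Upstream signals, mainly retinoic acid and CDX genes, had 80 peaks at 15 of 18 genes, of which 14 rose (17.5%) and 19 fell (23.8%), and Cdx2, Cdx4 and Cyp26a1 had no peak. Peaks in Cyp26b1, which breaks down retinoic acid, and in Rxra, a partner of its receptors, rose by 0.58 ± 0.07 and 0.55 ± 0.07, and a peak in Aldh1a3, which makes retinoic acid, fell by 0.63 ± 0.11. The genes beside the clusters had 50 peaks, of which 9 rose (18%) and 15 fell (30%). Among them Skap2, next to Hoxa, had a gene-end peak with 1658 ± 95.2 in #2, 1809 ± 59.1 in #4 and 2023 ± 89.2 in NTC, which fell by 0.22 ± 0.05 (adjusted p = 9.23e-05).

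The hairpins act on the Med1 transcript, so its chromatin is no check of the knockdown, and RNA was not analysed here. The Med1 gene-end peak changed by -0.08 ± 0.04 (adjusted p = 0.132). As a check of the labelled cell type, a gene-end peak was present at 1 of 6 epithelial markers (Krt18, with none at Krt8, Krt7, Cdh1, Epcam or Esrp1) and at 5 of 6 mesenchymal markers, with NTC means of 242 to 4576. Blood markers had one at 2 of 4 genes, endothelium and fat markers at 1 of 4, and neural markers at 3 of 3, all at NTC means of 62.6 to 156. With both hairpins averaged, 2 of 13 peaks at epithelial markers rose (15.4%) and 3 fell (23.1%). At blood markers 1 rose (25%) and 0 fell of 4. At endothelium and fat markers 3 rose (16.7%) and 3 fell (16.7%) of 18, and at neural markers 7 rose (22.6%) and 3 fell (9.68%) of 31. These counts stand beside 22.1% of all peaks that rose and 17.7% that fell, and nothing is read from them. The summed level of the epithelial peaks was 2426 to 2602 in #2, 2346 to 2559 in #4 and 2553 to 2720 in NTC, and the part of these lists in the Hox result was not tested. If the common step of the values in a library stands for 1 read, which could not be established, reads in peaks ran from 34.8 to 53.7 M per library. For bulk libraries, a lower value can stand for fewer cells with an open site or for a less open site in each cell, and these cannot be told apart.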

How the data were processed

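Per the submitters' processing notes, the authors used Trim Galore for trimming, BWA for alignment (mm10, GRCm38), MACS2 for peak calling and featureCounts from Subread for counting. The sources used here give no versions and nothing on duplicates, peak merging or a transposase offset. Each deposited value is a signal of 1 peak, which the authors call a DESeq2-normalized count. They were whole multiples of a step per library within 0.01 for 100% of values, but the step could not be tied to single reads, so no count model was run.

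Log2(value + 1) was fitted with limma 3.58.1 (R 4.3.3, trend, 3 group means, 6 residual degrees of freedom) for the 75930 peaks whose mean was 10 or more, leaving out 6. Fold changes are on this scale, which understates changes of low peaks. P-values are two-sided, Benjamini-Hochberg adjusted over all peaks, with a threshold of 0.05. The fit was tested on simulated data. Genes came from RefSeq, GRCm38.p6, coordinates are printed as deposited, and whether the table counts from 0 or 1 is not stated. Strand was known for the genes of the promoter table only.

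Peaks named in full were the 5 largest falls and rises past the threshold per comparison, the highest peak of each cluster, and up to 2 rises and 2 falls per linked list. The members and lists were chosen with earlier results of these data known. Same-numbered replicates did not deviate together (r from -0.084 to 0.033 over 9 pairs). Of the genes beside the clusters, 12 of 13 matched. Alternatives were other pseudocounts, filters, scalings, member rules, a replicate block, each library left out and, added after seeing the data, voom weights. Some results that these rules name are not reported here, though they enter the counts and sums.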

Additional observations from a re-analysis of the deposited data

Results flagged for a closer look

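The effects of the 2 hairpins differed at 3 of 22 Hox peaks, tested directly as #4 against #2 in the limma fit over all peaks. Of all peaks, 8.48% were higher in #4 than in #2. Whether the Hox peaks depart from that share was not tested. At Hoxa2 the log2 difference of #4 over #2 was 0.35 (adjusted p = 0.00641), with 438 ± 24.4 normalized counts in #4 and 345 ± 59.1 in #2. At Hoxa3 at 17.3 kb it was 0.26 (adjusted p = 0.00155), with 1140 ± 13.6 in #4 and 956 ± 67.1 in #2. At Hoxa5 it was 0.16 (adjusted p = 0.0425), with 1239 ± 44.5 in #4 and 1108 ± 68.6 in #2 (SD, n = 3 each). In all 3 Hox peaks the libraries of #4 lay above those of #2. The call was kept in 14 of 16 refits at Hoxa2, 16 of 16 at Hoxa3 at 17.3 kb and 7 of 16 at Hoxa5.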

How the results depend on the processing

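No Hox peak was higher past the threshold in a hairpin comparison with NTC under any alternative run, and of 34 calls 21 were kept in all 16 refits, with no change of sign in the others. Leaving out each library in turn gave 9 to 12 lower peaks for the mean of both hairpins, 10 to 13 for #2, 5 to 9 for #4 and 1 to 5 higher peaks for #4 against #2. In these refits, 10.96% to 18.71% of all peaks were lower for the mean of both hairpins. The share was 13.63% to 19.87% for #2 and 7.244% to 13.24% for #4. For #4 against #2, 5.842% to 8.371% of all peaks were higher. Equal totals gave 11 lower peaks with #4 and 5 higher ones for #4 against #2. The shares of all peaks moved too, to 19.7% lower with #4 (12.1% in the main fit) and 10.2% higher for #4 against #2 (8.48%). With all 29 peaks between the cluster ends as members, 18 were lower for the mean (17.7% of all peaks) and 11 for #4 (12.1%). The 7 peaks added by this rule were all lower for the mean. A filter on a mean of 50 left 20 of the 22 peaks. Same-numbered replicates did not deviate together, but whether they were prepared together is not known. A fit with the replicate block gave 11 lower peaks for the mean (17.2% of all peaks), 13 for #2 (18.8%) and 7 for #4 (11.3%). It gave 2 higher for #4 against #2 (7.77%). In 28 further cases a peak that had not passed did so under an alternative, each with the sign of the value without that alternative.

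Signs changed only in results that passed in neither setting. For the mean of both hairpins, equal totals gave -0.0059 at Hoxa3 at 28.5 kb, -0.0254 at Hoxa3 at 29.5 kb and -0.0355 at Hoxa4 at 35.8 kb, and quantile scaling 0.0136 at Hoxc6 at 35.2 kb. For #2, equal totals gave -0.0799 at Hoxa4 at 35.8 kb and quantile scaling 0.0795 at Hoxc6 at 35.2 kb, and for #4 quantile scaling gave 0.0386 at Hoxa4 at 35.1 kb. For #4 against #2, equal totals gave 0.0034 and voom 0.0109 at Hoxc6 at 34.5 kb, and voom -0.0156 at Hoxb8. The causes were not tested. With a library left out, the mean of both hairpins ran from -0.0548 to 0.14 at Hoxa3 at 28.5 kb, -0.0592 to 0.15 at 29.5 kb, -0.13 to 0.0031 at Hoxa4 at 35.1 kb, -0.0298 to 0.0853 at 35.8 kb and -0.14 to 0.0116 at Hoxc6 at 35.2 kb. For #2 it ran from -0.17 to 0.0200 at Hoxa3 at 28.5 kb, -0.0443 to 0.0533 at Hoxa4 at 35.8 kb and -0.17 to 0.0802 at Hoxc6 at 35.2 kb. For #4 it ran from -0.0770 to 0.0527 at Hoxa4 at 35.1 kb, -0.0649 to 0.17 at 35.8 kb and -0.17 to 0.0153 at Hoxc6 at 35.2 kb. For #4 against #2 it ran from -0.0702 to 0.16 at Hoxa4 at 35.8 kb, -0.0197 to 0.15 at Hoxa6, -0.12 to 0.0763 at Hoxb8, -0.23 to 0.12 at Hoxc6 at 34.5 kb and -0.17 to 0.0774 at 35.2 kb. Low values limit the Hoxc peaks most, with NTC means of 49.8 to 93.5.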
